A study of Nicotiana tabacum and Solanum tuberosum subsp. andigenum and Nicotiana sylvestris with 28 samples.

Results

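A group of 44 cDNA clones was chosen for mean ratios between day lengths of about 2-fold or more in leaves of Nicotiana tabacum Maryland Mammoth (MM) and near 0 in potato leaves, both after a change of day length and after a reduction of phytochrome B. The clones are spots of a potato cDNA array on which each clone is printed as a pair. A spot was taken when it had a value on 15 arrays (6 of MM, 6 of potato moved to short days and 3 of phytochrome B) and its mean log2 ratio was 1 or more in size in MM, within 0.5 of 0 for photoperiod in potato and within 1 of 0 for phytochrome B. Spots with a gene symbol were left out unless the symbol is a locus number. Of 32448 spots, 6728 had all 15 values, 67 met the limits and 64 remained after 3 were left out for their symbol. The 64 spots belong to 44 of the 10684 clones that had a value on at least 1 array, 20 clones with both spots and 24 with 1. In 16 clones the mean MM ratio lay towards short days (SD) and in 28 towards long days (LD), here called the SD members and the LD members. Only 9 of the clones carry a gene symbol, each a locus number for which no gene role was given in the annotation used here. The other 35 have none and are named by the number of their first spot.

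Leaves of plants 56 days old were compared as RNA pairs on 2-colour arrays, 3 biological replicates per comparison and time. Potato (Solanum tuberosum subsp. andigena), N. tabacum cv Hicks and its isogenic line MM, which carries the Maryland Mammoth allele, were grown in LD and moved to SD for the last 1 or 15 days, and were set against plants left in LD. N. sylvestris was grown in SD and moved to LD for the last 1 or 15 days, and was set against plants left in SD. Potato plants of 1 antisense line (α-PHYB, line 10) were set against wild type, both in LD. LD had 16 h of light at 80 μE and SD 8 h at 160 μE, and all leaves were taken 14 h after lights on, when LD plants were in light and SD plants in darkness. Day length, irradiance and light at harvest therefore cannot be told apart in any ratio between day lengths. Wild type and α-PHYB plants did not differ in them. A ratio holds no level, so the leaf origin of the RNA could not be checked against marker genes.

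Plants measure day length in the leaf, where phytochromes and the circadian clock set whether light falls at a responsive time, and a mobile signal then carries the outcome to the shoot tip or to the stolons. MM tobacco flowers only in SD, Hicks flowers irrespective of day length and N. sylvestris flowers only in LD, while andigena potato forms tubers only in SD. Phytochrome B, a red light receptor, holds tuber formation back in LD in potato. The Maryland Mammoth allele therefore separates MM and Hicks in flowering, although both are the same species.

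All ratios are log2 LD/SD (wild type/α-PHYB for phytochrome B), so that a positive value means higher RNA in LD. Nicotiana RNA gave fewer values on the potato array than potato RNA: 5169 to 7333 clones per array in MM, 5250 to 7157 in Hicks and 3602 to 4873 in N. sylvestris, against 8922 to 9887 in potato. Replicate 2 of MM stood apart. Its arrays of both days had r = 0.71 with each other across clones, and -0.15 to 0.29 with the other MM arrays, which had 0.59 to 0.82 among themselves. Hicks arrays had r from 0.02 to 0.59 among themselves. Among these, replicate 2 of 15 days had 0.04 to 0.41 with the others. In N. sylvestris, both replicate 1 arrays ran against replicates 2 and 3 of 1 day, with r from -0.42 to -0.20 across clones. The titles of the N. sylvestris samples also name a transfer opposite to that in their channel descriptions. The direction of the N. sylvestris ratios is thus not settled, and they are given as the channel descriptions have them and with the opposite sign where that matters.

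The members were chosen by their MM, potato and phytochrome B ratios, and the MM values are a description only. The SD members had MM means between -2.56 and -0.996 (median -1.29), and the LD members between 0.92 and 1.62 (median 1.08), where a clone mean can lie inside the limit if only 1 of its spots is a member. The SD members reached further from 0 than the LD members, through a few clones. The sign was the same on 6 of 6 MM arrays for 13 of the 16 SD members and for 19 of the 28 LD members, and on 5 of 6 for the rest. For 11 SD members and 22 LD members the ratio lay further from 0 after 15 days than after 1 day. The medians after 1 and 15 days were -1.17 and -1.41 for SD members and 1.04 and 1.21 for LD members. In replicates 1 and 3 the SD medians were -1.26 and -1.27 after 1 day and -1.05 in each after 15 days. The LD medians there were 1.25 and 1.68 after 1 day and 1.37 and 1.25 after 15 days. The SD median thus lay further from 0 after 15 days in replicate 2 alone, and the LD median in replicates 1 and 2 but not 3.

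**Figure D1:**
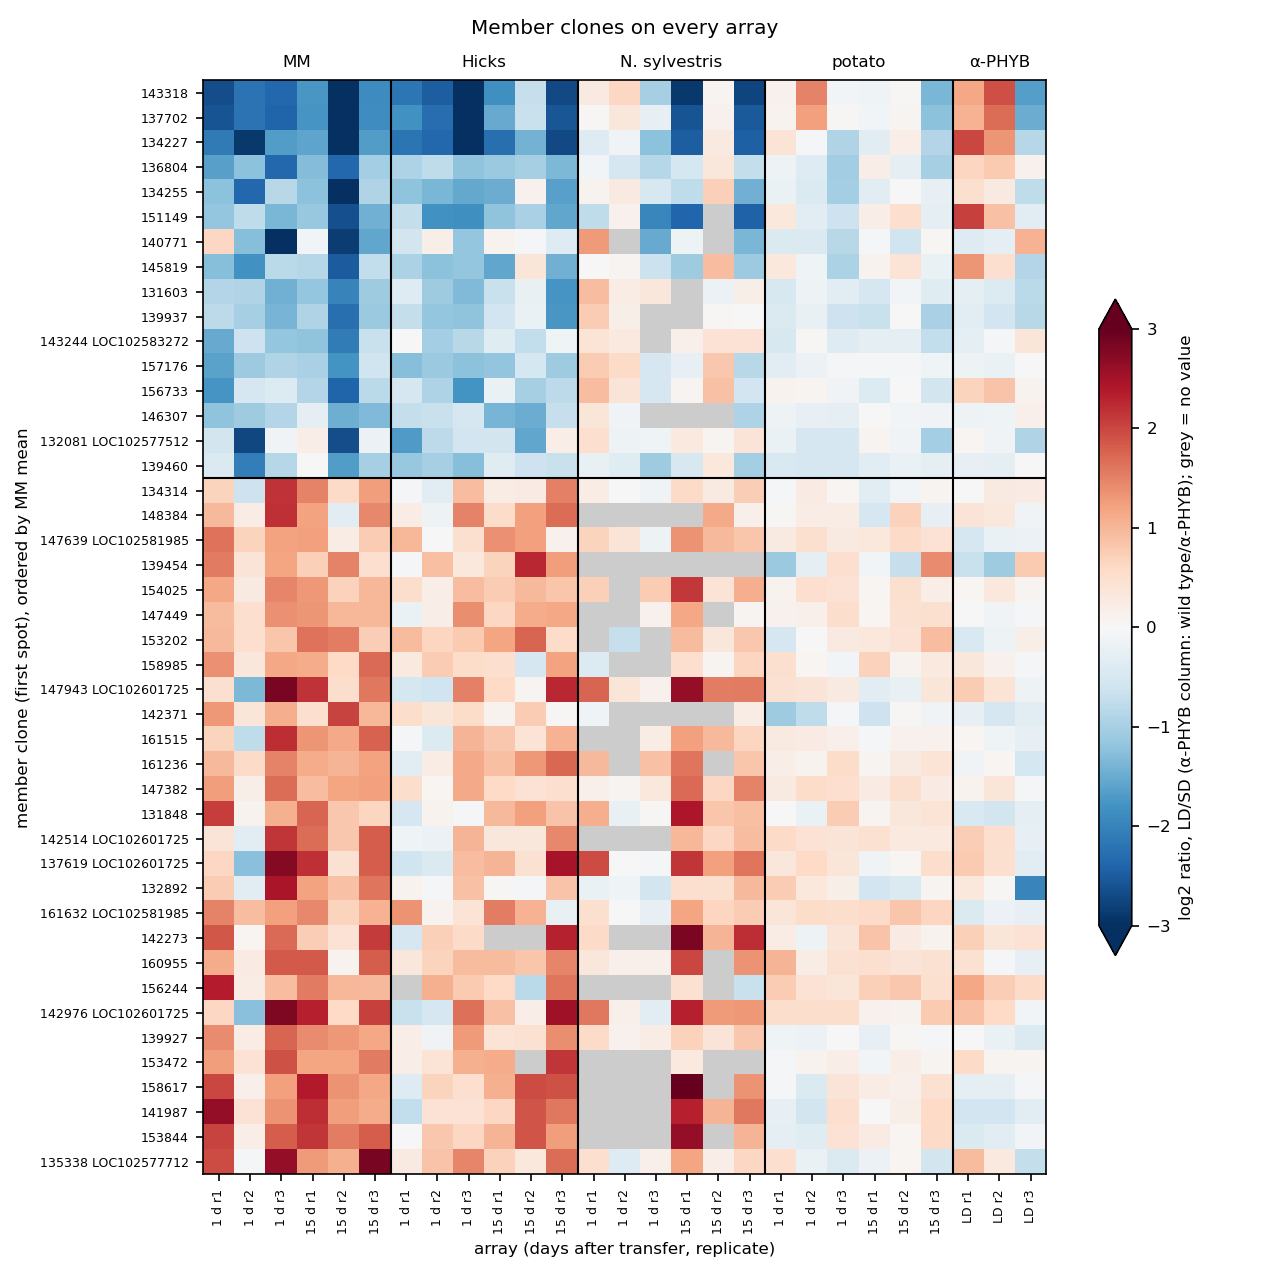
Log2 ratio of each of the 44 member clones (rows, SD members above the line and LD members below it, ordered by MM mean) on each array (columns, by species, days after transfer and replicate; r1 to r3 are replicates, grey cells have no value). Of the 16 SD members at least 14 are below 0 on each MM and Hicks array. Of the LD members 27 or 28 of 28 are above 0 on each MM array but replicate 2 of 1 day (20 of 28), whereas in Hicks the lowest counts are 14 of 27 and 18 of 28, in replicates 1 and 2 of 1 day.

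Clone 143318 had the lowest MM mean of all members. Its ratios were -2.65, -2.22 and -2.36 after 1 day in SD and -1.74, -4.48 and -1.89 after 15 days, a mean of -2.56 ± 1.00 (SD, n = 6). Clone 137702 had -2.60, -2.22 and -2.40 after 1 day and -1.76, -4.06 and -1.86 after 15 days. These clones are nearly the same array by array, with a median difference of 0.036 in MM and 0.21 in Hicks, and have no symbol that would tell whether they stand for 1 gene. Clone 134227 had -2.12, -2.89 and -1.67 after 1 day and -1.58, -4.32 and -1.67 after 15 days. The RNA of these 3 clones was higher in SD on each MM array, and replicate 2 of 15 days gave the value furthest from 0 for each. Clones 136804 and 134255, the next by MM mean, had -1.65 and -1.64.

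Among the LD members, clone 135338 (LOC102577712) had the highest MM mean. Its ratios were 1.95, -0.07 and 2.64 after 1 day in SD and 1.27, 1.08 and 2.84 after 15 days, a mean of 1.62 ± 1.09 (SD, n = 6). Clone 153844 had 2.04, 0.20 and 1.82 after 1 day and 2.15, 1.54 and 1.82 after 15 days. Clone 141987 had 2.64, 0.44 and 1.36 after 1 day and 2.22, 1.26 and 1.10 after 15 days. All 3 were higher in LD on 5 or 6 arrays, and replicate 2 of 1 day was the lowest value of each. Clones 158617 and 153472 followed with MM means of 1.38 and 1.25.

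Replicate 2 thus moved the 2 groups of members in different ways. After 15 days the median of the SD members was -2.45 in replicate 2 and -1.05 in each of replicates 1 and 3. After 1 day the median of the LD members was 0.21 in replicate 2, with 20 of 28 above 0, and 1.25 and 1.68 in replicates 1 and 3. Without replicate 2 the median was -1.05 for the SD members and 1.45 for the LD members. For 5 SD members and 2 LD members the MM mean was then under 1 in size. Clones 139460 (-0.996) and 139454 (0.97) among these were already under 1 with replicate 2. The mean nearest to 0 was that of clone 132081 (LOC102577512), which had -0.16 without replicate 2 and -1.003 with it. Other LD members were under 1 only with replicate 2, such as clone 134314 (0.92 with it and 1.39 without it). The rule applied without replicate 2 gave 110 clones, 40 of which are among the 44.

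**Figure D2:**
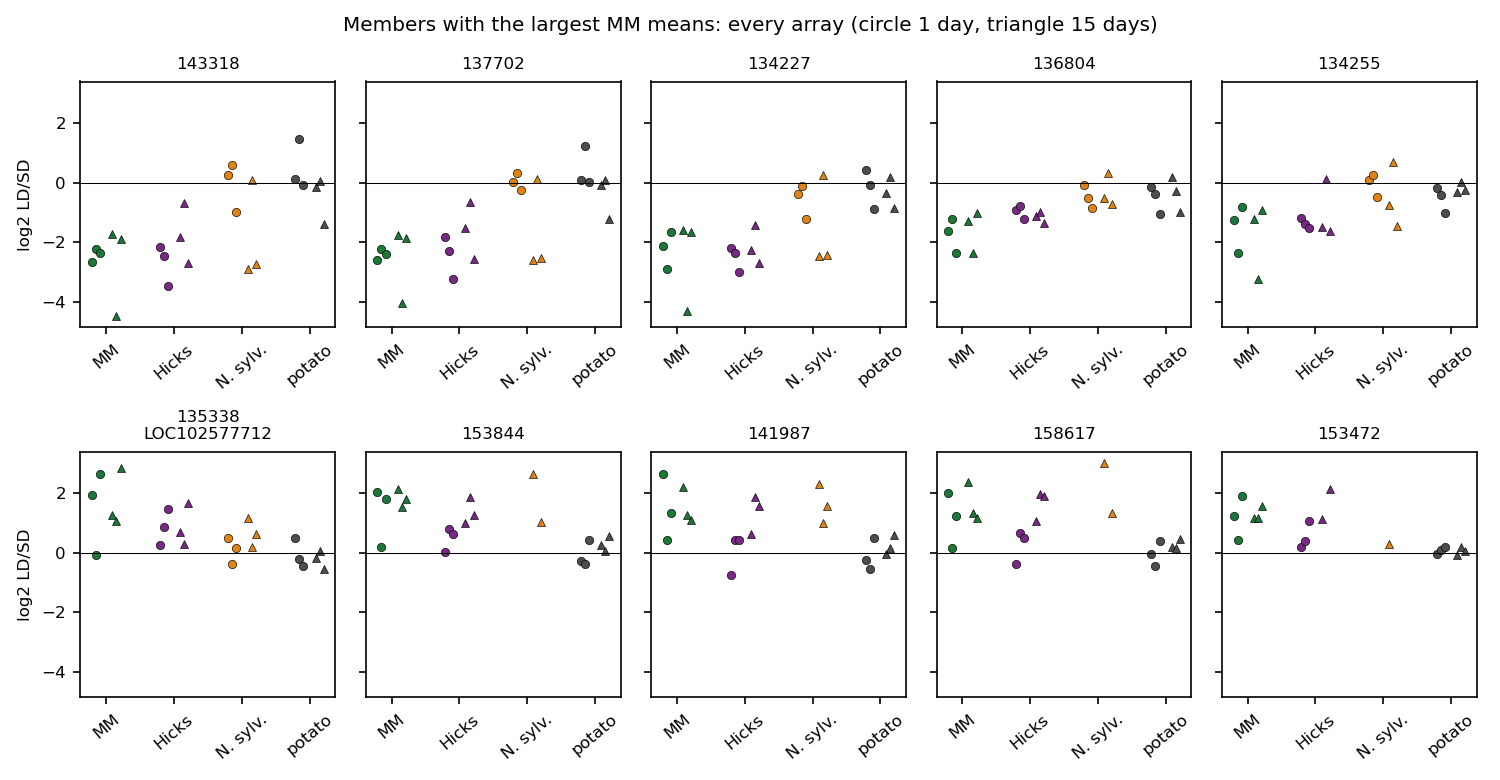
Log2 LD/SD of the 5 SD members (upper row) and the 5 LD members (lower row) with the largest MM means, on every MM, Hicks, N. sylvestris and potato array (circles 1 day, triangles 15 days after transfer). In clones 143318, 137702 and 134227 the Hicks values lie between -3.48 and -0.67 and overlap the MM values, whereas potato values lie on both sides of 0.

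Potato and phytochrome B values also served the rule. The SD members had potato means between -0.49 and 0.022 (median -0.29, 14 of 16 below 0), and the LD members between -0.43 and 0.59 (median 0.23, 23 of 28 above 0). The means were small, and most had the MM sign. The share of all clones with the MM sign in potato was not counted, so this is not read as a trait of the members. Single potato arrays went further than the means: 3 of 16 SD members and 6 of 28 LD members lay within 0.5 of 0 on every potato array, and 11 and 25 within 1. Clone 143318 had potato ratios of 0.14, 1.48 and -0.09 after 1 day in SD and -0.14, 0.04 and -1.38 after 15 days. Its mean of 0.0093 ± 0.91 (SD, n = 6) is an average over arrays of opposite sign. In α-PHYB plants the same clone had wild type/α-PHYB ratios of 1.17, 1.93 and -1.64. The members had phytochrome B medians of 0.064 (SD members) and 0.0044 (LD members), and 10 of 16 and 25 of 28 lay within 1 of 0 on all 3 arrays. A mean near 0 therefore did not mean equal RNA on every array.

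Hicks, the day-neutral sister line, was not used by the rule and was tested. All 16 SD members had a negative Hicks mean and all 28 LD members a positive one, so the members did not have their direction in MM alone. A share this high was not particular to the members. All 132 clones with values on every MM and Hicks array and an MM mean of 1 or more in size had the MM sign in Hicks, and 81.5% of 3466 clones of any size did. Both of these sets include members.

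Of the members, 41 had a value on all 6 Hicks arrays and entered a limma fit over 3914 clones. With a p of 0.05 or less and a Benjamini-Hochberg adjusted p of 0.1 or less, and no limit on size, 27 passed, 15 of 16 SD members towards SD and 12 of 25 LD members towards LD. Over all clones 9.81% passed, 4.83% towards SD and 4.98% towards LD. When a mean of at least 1 in size (2-fold) was also asked for, 7 members were called, all of them SD members, where 1.3% of all clones were called, 0.715% towards SD and 0.588% towards LD. The median Hicks ratio was -0.96 for the SD members and 0.70 for the 25 LD members, against 0.027 for all clones tested. By size, the median was 0.82 for the members and 0.18 for all clones.

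The RNA of clone 134227 differed most in Hicks. Its ratios were -2.18, -2.36 and -3.00 after 1 day in SD and -2.25, -1.42 and -2.70 after 15 days. The mean was -2.32 (standard error 0.18, n = 6, limma adjusted p = 9.88e-05), which is a 4.99-fold difference with 6 of 6 arrays in one direction. Clone 143318 had -2.16, -2.48 and -3.48 after 1 day and -1.84, -0.69 and -2.70 after 15 days. Its mean was -2.22 (standard error 0.28, n = 6, limma adjusted p = 0.00255). Clone 137702, which resembles it, had a mean of -2.02 (limma adjusted p = 0.00369). In these 3 clones the MM and Hicks ranges overlapped.

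The other 4 called clones had Hicks means between -1.35 and -1.06. Clone 151149 had -0.73, -1.82 and -1.84 after 1 day and -1.20, -0.97 and -1.56 after 15 days. Clone 157176 had -1.29, -1.12 and -1.23 after 1 day and -1.18, -0.53 and -1.06 after 15 days. Both were higher in SD on each of the 6 arrays. Clone 136804 was as steady, with ratios from -1.36 to -0.77, whereas clone 134255 had 0.13 in replicate 2 of 15 days and -1.62 to -1.20 on the other arrays. The SD member that did not pass was clone 140771, with a Hicks mean of -0.32 (limma adjusted p = 0.297) and MM ratios between -3.06 and 0.61.

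By clone mean, no LD member reached 2-fold in Hicks, though some came close. Single member spots went past it, up to 1.07 for a spot of clone 139454. The highest tested was clone 153202, with 0.95, 0.65 and 0.77 after 1 day and 1.18, 1.75 and 0.54 after 15 days, a mean of 0.97 (standard error 0.16, n = 6, limma adjusted p = 0.0093). Clone 158617 had a mean of 0.95 (adjusted p = 0.0692), clone 153844 of 0.94 (adjusted p = 0.0248) and clone 135338 (LOC102577712) of 0.88 (adjusted p = 0.0254), from the same limma fit. The 13 LD members that did not pass had means between 0.30 and 0.71. All 44 members had a mean nearer to 0 in Hicks than in MM, which the choice by MM size favours and which was therefore not tested.

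Leaving out a replicate raised the 7 calls of at least 2-fold to 16 without replicate 1 (1.54% of all clones), of which 7 were LD members, and to 12 without replicate 2 (1.52%), of which 2 were LD members. Without replicate 3 there were 9 (1.55%), also with 2 LD members, and the median of the LD members was 0.45. With the days apart, 2 of 42 members were called from 15 days alone (0.27% of all clones) and 11 of 43 from 1 day alone (2.95%).

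**Figure D3:**
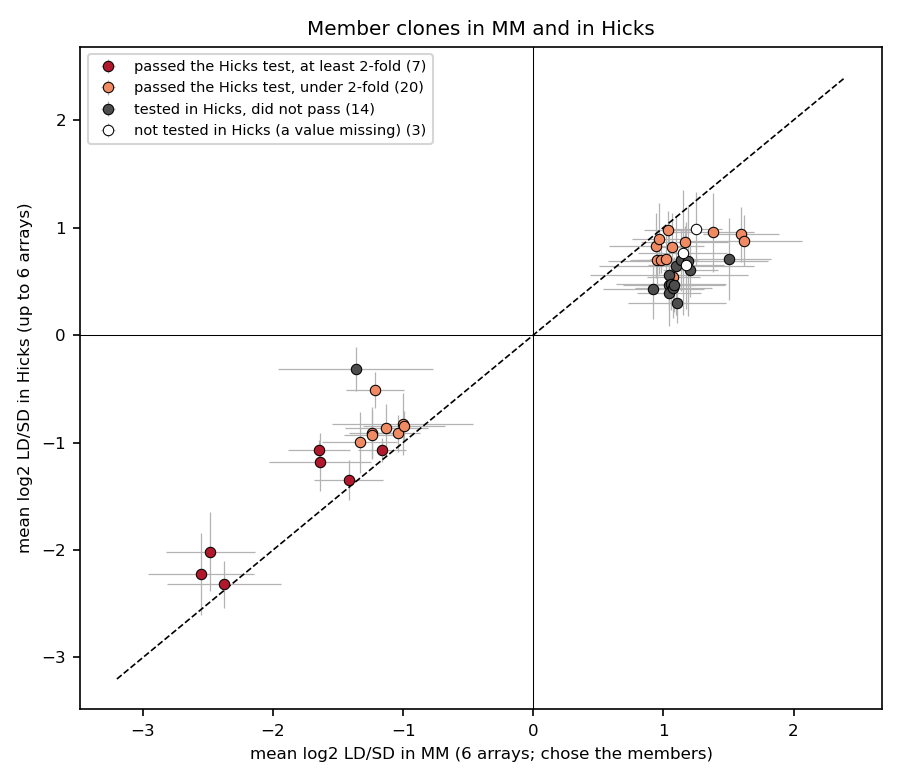
Mean log2 LD/SD of each member clone in MM (horizontal axis, the values that chose it) and in Hicks (vertical axis), with standard errors over arrays as bars, by the outcome of the Hicks test; the dashed line marks equal ratios. All 44 clones lie in the lower left or upper right quadrant and nearer to 0 in Hicks than in MM, and the 7 called clones are all on the side of SD.

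In Hicks the median of the SD members was -1.10 after 1 day in SD and -0.90 after 15 days. The LD members had medians of 0.45 after 1 day and 0.96 after 15 days, and 21 of 25 were higher after 15 days. Of the SD members only 2 of 16 were lower after 15 days, so both groups shifted mostly upwards. The share of all clones that shifted upwards was not counted, so this is not read as a trait of the members. No member passed the limma test of the difference between days (0 of 41), nor did any clone on the array (0 of 3914, 0%). At an unadjusted p of 0.05, 9 of 41 members passed, where 19.1% of all clones did, and 4 of the 9 at 2-fold or more, where 3.09% did. Without replicate 3, 6 members were called at 2-fold or more (5.72% of all clones), and without replicate 1 or 2 none were. The lowest p among the members was that of clone 131848, with -0.49, 0.09 and -0.04 after 1 day and 0.97, 1.24 and 0.85 after 15 days. Its difference of 1.17 (standard error 0.23) had an adjusted p of 0.16 in limma, and its values of the 2 days did not overlap. Clone 158617 had -0.38, 0.68 and 0.50 after 1 day and 1.06, 1.97 and 1.90 after 15 days, and its difference of 1.38 did not pass either (limma adjusted p = 0.161).

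N. sylvestris was also independent of the rule, but only 21 members had a value on all 6 arrays, 10 SD members and 11 LD members. The share with all values was 47.7%, against 53.0% of all clones with the 15 values of the rule. The 11 LD members had means above 0, between 0.18 and 1.33 (median 0.67), and of the 10 SD members 7 were below 0 (median -0.34). Over the members with all values in each case, the SD median was -0.019 without replicate 3, -0.67 without replicate 2 and -0.039 from 1 day alone, and the LD median was 0.39 without replicate 1 and 0.26 from 1 day alone. In the limma fit, 3 of 21 members passed with no limit on size, all LD members towards LD, where 8.47% of 2314 clones did, 2.64% in that direction. At 2-fold or more 2 were called, where 1.82% of all clones were, 1.12% in that direction. At the unadjusted p 10 passed (23.8% of all clones), 4 of them at 2-fold or more (2.33%). By sign, 18 of 21 matched MM, as did 45 of 71 clones (63.4%) with an MM mean of 1 or more in size and 47.3% of 2239 clones of any size. Members are included in both of these sets. With the opposite sign for N. sylvestris, 3 of 21 members, 26 of those 71 clones and 52.7% of the 2239 would match.

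Both called clones belong to LOC102601725. Clone 147943 had ratios of 1.76, 0.36 and 0.12 after 1 day in LD and 2.65, 1.53 and 1.56 after 15 days, a mean of 1.33 (standard error 0.31, n = 6, limma adjusted p = 0.0784). Clone 137619 had 1.95, 0.01 and -0.04 after 1 day and 2.15, 1.23 and 1.60 after 15 days, a mean of 1.15 (standard error 0.32, n = 6, limma adjusted p = 0.0894). In both, the 15-day values and replicate 1 of 1 day were high and the other 1-day values near 0. The third, clone 147639 (LOC102581985), had a mean of 0.67 (limma adjusted p = 0.0983).

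The strongest SD members did not pass in N. sylvestris. Clone 143318 had 0.27, 0.61 and -0.99 after 1 day in LD and -2.89, 0.08 and -2.75 after 15 days. Its mean was -0.94 (standard error 0.49, limma adjusted p = 0.272). Clone 134227 had -0.39, -0.10 and -1.23 after 1 day and -2.48, 0.27 and -2.44 after 15 days, a mean of -1.06 (limma adjusted p = 0.141). Replicates 1 and 3 of 15 days were far below 0 in both clones, and replicate 2 was not.

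These counts were unstable. Replicate numbers pair the N. sylvestris arrays, and with the number as a fixed block 4 of 21 members were called (2.46% of all clones) and with it as a random block 0 (0.0432%). The difference between days, called for 0 of 21 members without a block (0% of all clones, and 5 members at the unadjusted p, where 4.45% of all clones passed, 2 of them at 2-fold or more, where 1.43% did), was called for 7 with either block (5.1% of all clones). Without replicate 1 it was called for 4 members (8.96% of all clones). Without replicate 1, 2 or 3 in turn, 0, 1 and 0 members were called (1.41%, 1.21% and 0% of all clones). With the opposite sign for N. sylvestris the same 2 clones would be higher in SD, and the median of the LD members would be -0.67. With both replicate 1 arrays turned, 0 were called (0.0432% of all clones) and the LD members had a median of -0.077.

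Hicks and N. sylvestris differed for some SD members. The difference of the means, Hicks minus N. sylvestris, passed at 2-fold or more for 3 of 21 members, all SD members, where 5.73% of 2148 clones passed, 1.72% in that direction. With no limit on size 5 passed, all SD members in the same direction, where 16.8% of all clones passed, 6.15% in that direction. Clone 157176 had a mean of -1.07 in Hicks and 0.09 in N. sylvestris, a difference of -1.16 (standard error 0.29, limma adjusted p = 0.0384). The N. sylvestris ratios of this clone were 0.76, 0.58 and -0.51 after 1 day and -0.24, 0.80 and -0.83 after 15 days, on both sides of 0. Clone 134227 differed by -1.25 (standard error 0.45, limma adjusted p = 0.092) and clone 156733 by -1.07 (standard error 0.31, limma adjusted p = 0.0533). For the LD members the differences lay between -0.77 and 0.50 and none of the 11 passed (0 at the unadjusted p, which 7 SD members and 27.2% of all clones passed, 4 and 6.24% at 2-fold or more). The number as a fixed block gave 5 calls (6.52% of all clones) and as a random block 0 (0.791%), and without replicate 1, 2 or 3 in turn the calls were 1, 0 and 0 (2.91%, 6.64% and 0%). With the opposite sign for N. sylvestris 16 of 21 members were called (5.03% of all clones).

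**Figure D4:**
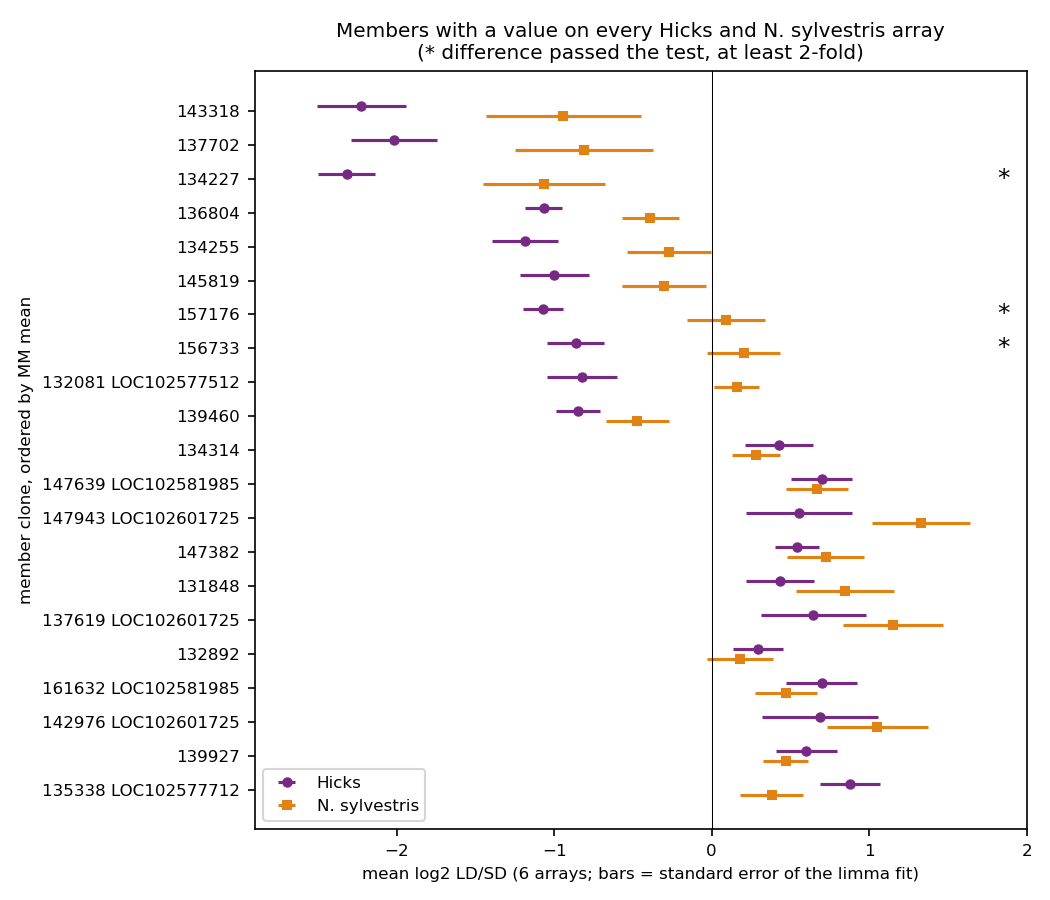
Mean log2 LD/SD with the standard error of the limma fit (bars) in Hicks (circles) and N. sylvestris (squares) for the 21 members with a value on all 12 arrays, ordered by MM mean from the SD members at the top; an asterisk marks a difference that passed at 2-fold or more. The LD members are above 0 in both species, and the 3 marked clones are SD members with lower ratios in Hicks.

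The 9 members with a symbol stand for 5 loci, and other clones of the same loci were on the array. LOC102601725 had 8 clones, 4 of them members. Their MM means were 1.05, 1.08, 1.10 and 1.19, and those of the other 4 were 0.12, 0.66, 0.80 and 0.95. A spot of 1 of these others, with an MM mean of 0.997, was the nearest to the limit from outside, whereas a spot of clone 153202 at 1.002 was the nearest inside. The locus was thus divided by the threshold, apart from clone 131671 at 0.12. Clone 137619 had MM ratios of 0.62, -1.25 and 2.76 after 1 day and 2.19, 0.46 and 1.82 after 15 days, and clones 147943 and 142976 differed from it by medians of 0.0915 and 0.088 per array. The MM means of these 3 clones were therefore made of high values in replicate 3, values of 0.48 to 2.32 in replicate 1 and values below 0 in replicate 2 of 1 day. In Hicks, the same 3 clones had means of 0.65, 0.56 and 0.69, none of which passed (adjusted p from 0.272 to 0.34 in limma). Without replicate 3 the Hicks means of clones 147943 and 142976 were -0.11 and -0.018, so their positive sign rests on that replicate. From 1 day alone, clone 137619 had -0.027 in Hicks. In N. sylvestris 6 of 7 clones of the locus with all values lay between 1.05 and 1.33, and clone 131671 had -0.37.

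LOC102581985 had 3 clones, 2 of them members. Clone 161632 had an MM mean of 1.14, a Hicks mean of 0.70 (limma adjusted p = 0.103) and an N. sylvestris mean of 0.47. Clone 147639 had 0.95, 0.70 (adjusted p = 0.0616) and 0.67 in the same order, and clone 140869, not a member, had 0.10, 0.59 and 0.66. The clone with almost no mean shift in MM was thus close to the others in Hicks and N. sylvestris.

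LOC102577712 had 2 clones with almost the same MM mean, member 135338 at 1.62 and clone 142744 at 1.60, which lacked a value on 1 MM array and 1 Hicks array. Their Hicks means were 0.88 and 1.00 and their potato means -0.14 and -0.36. LOC102583272 also had 2 clones. Member 143244 had a mean of -1.21 in MM and -0.51 in Hicks (limma adjusted p = 0.087), and clone 162139 had -1.12 in MM and -0.69 in Hicks and fell outside the potato limit at -0.56. The clones of each of these loci were close to each other in MM and Hicks. In N. sylvestris they were less alike. Clones 135338 and 142744 had 0.38 and 1.25 there, and clones 143244 and 162139 had 0.35 and -0.12. Clones 142744 and 143244 lacked some N. sylvestris values.

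The clones of LOC102577512 were less alike. Member 132081 had an MM mean of -1.003, and the other 7 clones of the locus had -0.43 to 0.11. Its MM ratios were -0.56, -2.72 and -0.11 after 1 day and 0.20, -2.65 and -0.18 after 15 days, so that replicate 2 was far from 0 and the others lay between -0.56 and 0.20. In Hicks the 8 clones had means between -0.82 and -0.01, and the member passed with -0.82 (standard error 0.22, n = 6, limma adjusted p = 0.0586). The member did not pass in Hicks without replicate 1 (limma adjusted p = 0.249) or without replicate 2 (limma adjusted p = 0.215). In N. sylvestris the 5 clones with all values lay between 0.16 and 1.60.

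**Figure D5:**
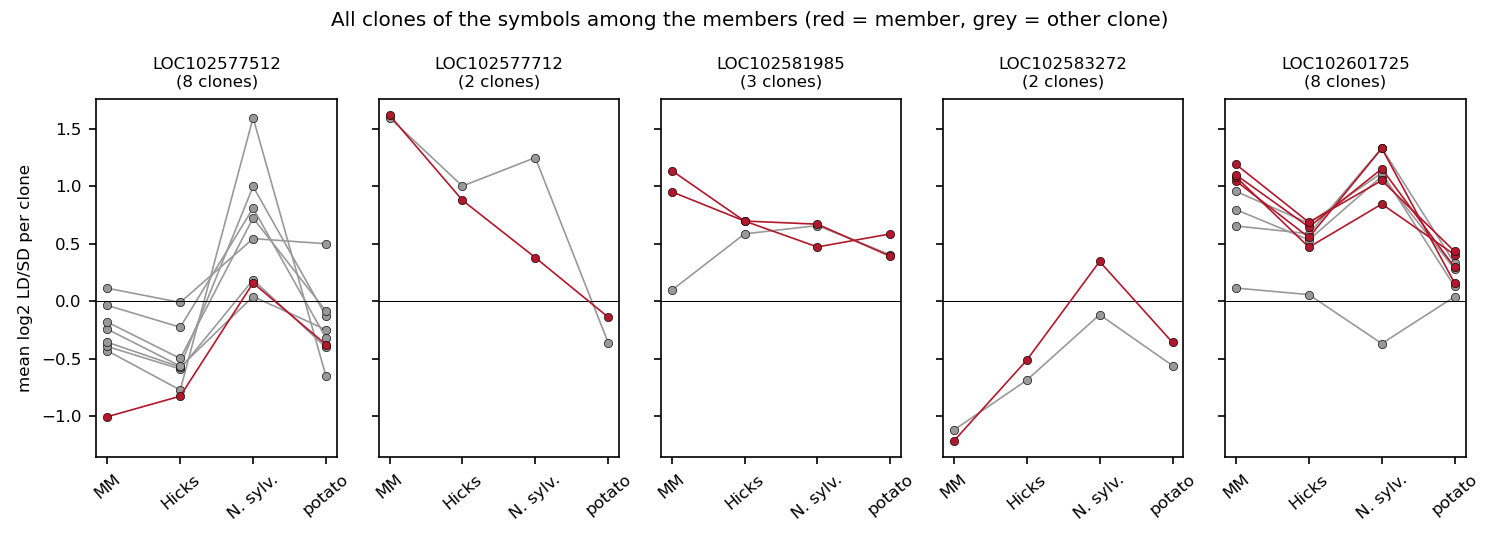
Mean log2 LD/SD in MM, Hicks, N. sylvestris and potato of every clone of the 5 loci found among the members (red, member clones; grey, other clones; a line joins the values of 1 clone and has no other meaning). In MM, LOC102601725 and LOC102577712 have non-members close to their members, while member 132081 of LOC102577512 stands apart from the other 7 clones.

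At the other MM limit and the potato limits the nearest spots were also close. Towards SD, a spot of clone 139460 had an MM mean of -1.03 and the nearest outside had -0.97. For potato, a spot of clone 160955 lay inside at 0.48 and the nearest outside at 0.50, and a spot of clone 139937 lay inside at -0.49 and a spot of LOC102583272 outside at -0.53. For phytochrome B they were further apart. A spot of clone 156244 at 0.87 and one of clone 139937 at -0.62 were the nearest inside, and the nearest outside had -1.45.

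Clones with mean ratios of 2-fold or more the same way in MM and potato were set beside the members without a test, since their choice also used these ratios. In Hicks, the members had medians of -0.96 (16 SD members) and 0.70 (25 LD members), and the clones of both species -1.14 (19 towards SD) and 0.92 (31 towards LD). In N. sylvestris, the members had -0.34 (10 SD members) and 0.67 (11 LD members), and the clones of both species -1.24 (7 towards SD) and -0.03 (21 towards LD).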

How the data were processed

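For the authors, the TIGR Expression Profiling Service hybridized and quantified 28 potato cDNA arrays and normalized spot intensities by LOWESS. The deposited values are log2 ratios. Their direction is given in no source used here and was set as Cy3 to Cy5, by which marker genes have the signs the study gives. In N. sylvestris, with SD in Cy3 per the labels, signs were turned. The 2 spots of a clone (median r = 0.890) were averaged. Member spots followed the limits given above. The members, lists and rules for naming clones were chosen with earlier results of these data known. Named clones are every member with a symbol, the 5 largest MM means in each direction, up to 5 called in each test and direction, and those nearest each limit; other clones named were chosen after their values were seen.

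Hicks, N. sylvestris, their difference and the day differences were tested with limma 3.58.1 (R 4.3.3) over all clones with every value. The fits were also run on simulated data with independent arrays, which does not cover arrays that deviate together. Calls need p of 0.05, Benjamini-Hochberg adjusted p of 0.1 and, where stated, a mean of 1 in size, the thresholds of the methods. Same-numbered arrays of the 2 days deviate together in MM (r = 0.541, 0.753 and 0.514) and N. sylvestris (0.856, 0.716 and 0.604). In Hicks they do so weakly or not at all (0.307, -0.069 and 0.320). The titles give the controls of both days the same name, and whether their RNA was shared was not tested. The number of arrays limits the precision. Of 1810 annotated probes, 1630 have 1 symbol and 180 several. The planned lists by gene product were not run because the tables used here pair no product with a clone. Alternatives were other scaling, thresholds, tests, blocks, dye term, days, single spots and replicates left out.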

Additional observations from a re-analysis of the deposited data

Results flagged for a closer look

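Among the 91 sets of 6 arrays examined for 26 named members, 7 held 1 array far from the other 5. Chance flags about 1 in 20 independent sets. These sets are not independent, as clones 143318 and 137702 are nearly the same, and the MM and potato sets hold values that chose the members. The count is therefore not compared with chance. In MM, replicate 2 of 15 days was the far array for clones 143318 (-4.48, others from -2.65 to -1.74), 137702 (-4.06, others from -2.60 to -1.76) and 151149 (-2.65, others from -1.43 to -0.76), and replicate 2 of 1 day for clone 153844 (0.20, others from 1.54 to 2.15). In Hicks, replicate 2 of 15 days was the far array for clones 134255 (0.13, others from -1.62 to -1.20) and 157176 (-0.53, others from -1.29 to -1.06). In potato, replicate 1 of 1 day was the far array for clone 160955 (1.01, others from 0.23 to 0.48). Without replicate 1, 2 or 3 in turn, the Hicks fit called 16, 12 and 9 members at 2-fold or more (1.54%, 1.52% and 1.55% of all clones), against 7 with all replicates (1.3%).

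The ratio differed between Hicks and N. sylvestris, by limma's test of the difference, for clones 134227 (-1.25), 156733 (-1.07) and 157176 (-1.16), each lower in Hicks. Their calls depend on the N. sylvestris arrays, whose direction is not settled. Without replicate 2, the N. sylvestris means of clones 156733 and 157176 were -0.015 and -0.21.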

How the results depend on the processing

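The median Hicks ratios of the SD and LD members kept their sign in 12 of 12 alternatives each. They ran from -1.11 to -0.90 for SD members and from 0.45 to 0.93 for LD members. All moved by less than the standard deviation of the array medians, a wide limit (0.25 for SD members and 0.51 for LD members). In N. sylvestris the medians reversed with the opposite sign (0.34 for SD members and -0.67 for LD members), and for LD members with replicate 1 turned (-0.077). By the rule, both spots required gave 20 clones, MM after 15 days alone 78 and a potato band of 0.3 gave 26; without replicate 1, 2 or 3 of MM there were 44 to 110.

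The share of all clones tested that was called stands in brackets after each count. Of members called in Hicks (7), there were 15 after centring and scaling (2.17%) and 11 with single spots (1.46%). Of these, 4 and 3 were LD members. There were 2 from 15 days (0.27%), 11 from 1 day (2.95%), 27 with no size limit (9.81%) and 9 to 16 with a replicate left out (1.52% to 1.55%). In N. sylvestris (2 called) there were 8 from 15 days (3.76%) and 0 from 1 day (0%, no clone), 0 with an adjusted p of 0.05 (0.216%), 0 with 4 of 6 values (0.67%), 0 with the methods' t-test and Benjamini-Hochberg adjustment (0.303%), 0 with the dye term subtracted (0.58%), 0 with replicate 1 turned (0.0432%), 4 at the unadjusted p of limma (2.33%), 6 with members chosen without MM replicate 2 (1.82%), and 0 to 1 with a replicate left out (0% to 1.41%). For Hicks minus N. sylvestris (3 called) there were 8 after centring and scaling (6.28%), 0 from 15 days (0%, no clone) and 6 from 1 day (6.52%). There were 1 with an adjusted p of 0.05 (2.47%), 5 with no size limit (16.8%) and 5 with 4 of 6 values (4.97%). The methods' t-test gave 1 (2.98%), the opposite sign for N. sylvestris 16 (5.03%) and replicate 1 turned 1 (1.4%). With a replicate left out there were 0 to 1 (0% to 6.64%). For the difference between days (0 called), Hicks gave 2 by the methods' t-test (1.43%) and 4 by limma (3.09%), both at the unadjusted p, and 0 to 6 with a replicate left out (0% to 5.72%), and N. sylvestris gave 1 (0.173%), 2 (1.43%) and 0 to 4 (0% to 8.96%).

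With the replicate number as a block, fixed and random, N. sylvestris gave 4 and 0 calls (2.46% and 0.0432%), Hicks minus N. sylvestris 5 and 0 (6.52% and 0.791%), and the day difference in N. sylvestris 7 and 7 (5.1% each). In Hicks, where same-numbered arrays deviated together weakly or not at all, the blocks gave 5 and 0 for the day difference (1.87% and 0%). The cause of these changes was not tested, apart from stricter limits and fewer arrays. Over the named members and alternatives, a pass in Hicks was lost 45 times and gained 8 times, and the outcome was kept 304 times. In N. sylvestris a pass was lost 28 times and gained 6 times, and the outcome was kept 186 times. Named members reversed sign in Hicks for clone 137619 from 1 day (-0.027) and, with a replicate left out, for clones 142976 (-0.018 to 1.10) and 147943 (-0.11 to 0.96). In N. sylvestris they reversed for clone 137702 from 1 day (0.040), for clone 157176 from 15 days (-0.091) and, with a replicate left out, for clones 134255 (-0.65 to 0.077), 156733 (-0.015 to 0.57) and 157176 (-0.21 to 0.48). The replicate 1 turn, limma's unadjusted p and the member lists for counts were chosen after seeing the data.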
